A study of Homo sapiens with 2 samples.

Results

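Semaphorins, ephrins, netrins and slits are the ligands of axon guidance, and 56 genes of these families, their receptors and their relatives were described in SBC5, a cell line established from a human small cell lung cancer. Members were taken by name from the 12494 gene names of the table: the semaphorins, plexins, neuropilins, Eph receptors, ephrins, netrins, slits, roundabout receptors, SLITRK proteins, UNC5 receptors and collapsin response mediators, with DCC and NEO1. The same name prefixes also caught UNC50, a Golgi membrane protein, and the antisense RNA SEMA3B-AS1. A further 29 protein-coding genes that GENCODE release 29 lists under these names were not analysed here. Polyadenylated RNA had been sequenced from parental SBC5 cells and from a derivative made resistant to cisplatin by exposure to 1, 2, 4 and 20 µg/ml in steps; both were grown in medium with serum. Each group was 1 library, so no difference below has a replicate check, no test was possible and every value describes these 2 libraries. Values are FPKM, fragments scaled to the length of the locus and the size of the library, so levels can be compared between genes per length. The number of fragments behind a value is unknown.

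In the developing nervous system these ligands attract or repel growth cones, and the same systems shape vessels and branching epithelia, the lung included. Secreted class 3 semaphorins bind neuropilins, which signal through plexins, whereas most membrane-bound semaphorins bind plexins directly. Ephrins are bound to the cell surface and signal through Eph receptor tyrosine kinases on neighbouring cells, netrins act through DCC, neogenin and the UNC5 receptors, and slits act through roundabout receptors.

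A difference is given as the log2 ratio, log2 of (resistant FPKM + 1) over (parental FPKM + 1), for genes that reached 1 FPKM in 1 of the libraries or both. ROBO2, at 0.906 and 0.722 FPKM, did not reach it, which left 55 members. In resistant cells 8 members were at least 2-fold higher on this scale (14.5%) and 2 were lower by 2-fold or more (3.64%), where 3.28% of all 12405 genes compared were higher and 2.7% lower. The 8 were SEMA3D, SLIT2, the receptors EPHA1, EPHA5 and EPHB3, and the plexins PLXNB1, PLXNC1 and PLXNB3, and the 2 were SLITRK3 and EFNA5. The members had no common direction, since 26 lay above 0 and 29 below, and their median of -0.03 was near the -0.04 of all genes. Fewer of them lay close to 0: 61.8% of members were within 0.5 of it, against 82.7% of all genes. The members were also lower in level, with a median mean FPKM of 7.88 against 14.4, and ratios spread more widely at low level. Among the 32 members with a mean under 10 FPKM 6 were higher and 2 lower, where 5.90% and 3.73% of all genes at that level were. Among the 23 at or above it 2 were higher and none lower, where 1.63% and 2.05% of all such genes were. Set against the central 95% of genes of like level, 4 of the 8 higher members lay above that range (SEMA3D, EPHA1, PLXNB1 and SLIT2), and PLXNC1, EPHA5, EPHB3 and PLXNB3 lay inside it. SLITRK3, EFNA5 and, within 2-fold, SEMA6B lay below it. PLXNB1 lay above the range through a locus without a strand (1.52). Its locus on the annotated strand had 0.90, under the 1.25 at which the range used for PLXNB1 ended. How much of the spread level accounts for was not tested.

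**Figure D1:**
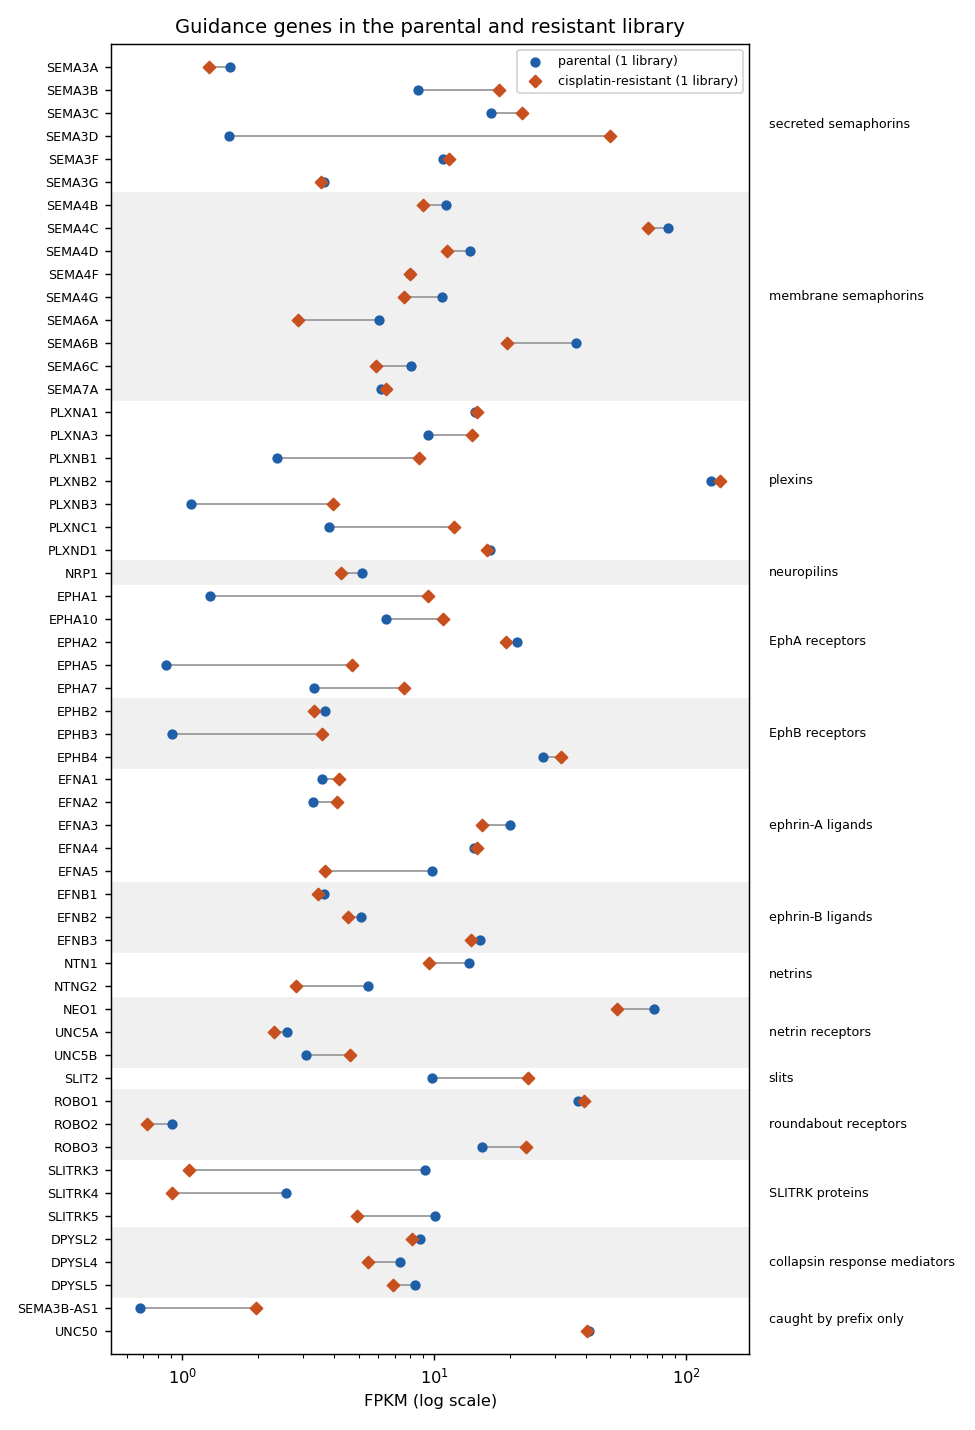
FPKM (log scale) of each of the 56 members in the parental library (circles) and the resistant library (diamonds), grouped by role. SEMA3D has the longest line, from 1.54 to 49.7 FPKM, while PLXNB2 and SEMA4C are at the right in both libraries.

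**Figure D2:**
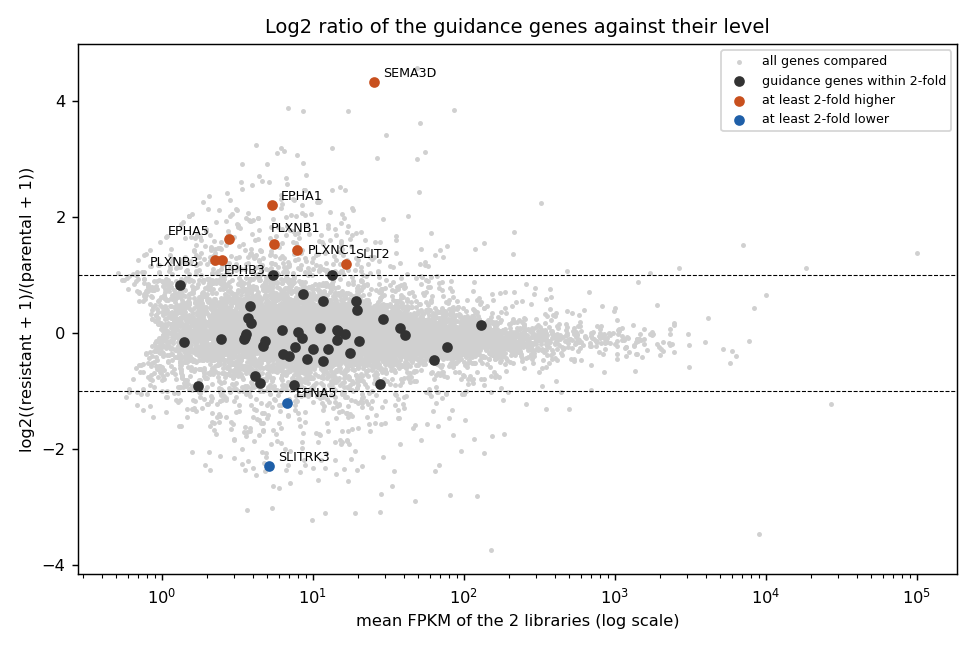
Log2 ratio against the mean FPKM of the 2 libraries (log scale) for all 12405 genes compared (grey) and the 55 members, with dashed lines at 2-fold. The 10 members past the lines are named, and 8 of them lie above.

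SEMA3D, a secreted semaphorin, stood at 1.54 FPKM in the parental and 49.7 FPKM in the resistant library, a 32.3-fold difference of FPKM and the second highest log2 ratio of the genes compared (4.32). Of the 6 secreted semaphorins compared it was the lowest in the parental library, together with SEMA3A, and the highest in the resistant library. Its log2 ratio stayed between 3.06 and 4.93 under all settings tried. The gene lies on the minus strand of chromosome 7, from 84995553 to 85186855 (GRCh38). On its downstream side lie 2 other members of its own class that were compared. SEMA3A lies 0.503 Mb downstream and had 1.54 and 1.27 FPKM (-0.16), and SEMA3C, 4.07 Mb away, had 16.8 and 22.2 FPKM (0.38). Both are on the same strand as SEMA3D, and neither shared its difference. Of the 15 other genes compared whose start lies within 5 Mb, none passed 2-fold, and their log2 ratios ran from -0.58 for ADAM22 to 0.75 for RUNDC3B, with a median of -0.12.

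**Figure D3:**
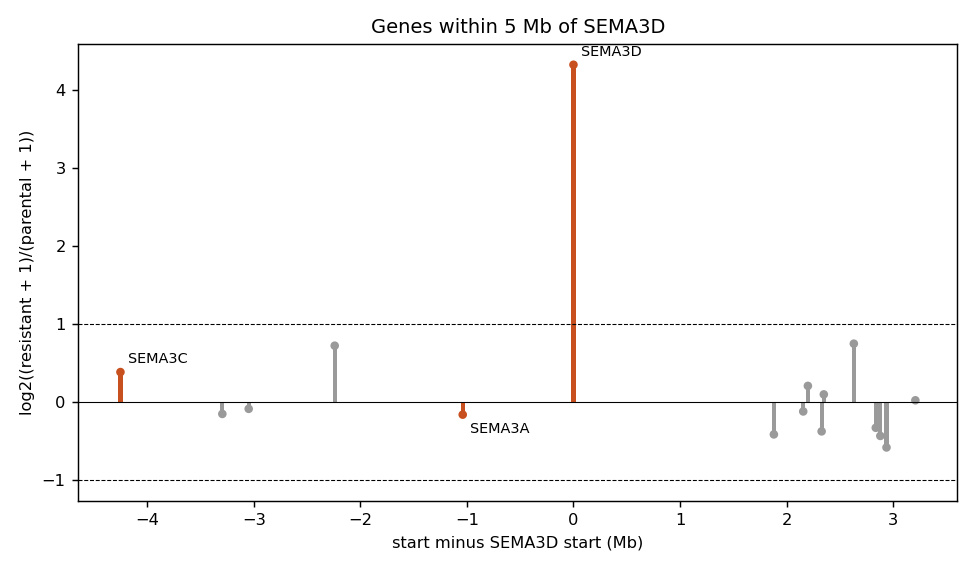
Log2 ratio of the 16 genes compared whose start lies within 5 Mb of that of SEMA3D on chromosome 7, by distance in Mb, with semaphorins coloured and dashed lines at 2-fold. SEMA3D alone passes a line, and SEMA3A and SEMA3C lie near 0.

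The 250 bases before the start of 4 members follow, to show what sequence lies at the genes with the largest differences in either direction and at a neighbour of SEMA3D that lay within 2-fold. They come from RefSeq (build GRCh38.p14), which matched 46 of the 56 members, and are printed 5′ to 3′ on the strand of the gene. For SEMA3C and SLITRK3 the first of several listed starts was used, and the table does not tell which start these cells use. SEMA3D is chr7:85187057-85187306, SEMA3C is chr7:80922390-80922639, EPHA1 is chr7:143408857-143409106 and SLITRK3 is chr3:165197110-165197359, all on the minus strand. Capitals mark matches on either strand to 5 motifs: the TATA box (TATAAA), the GC box (GGGCGG), the CCAAT box (CCAAT), an E-box (CACCTG) and an AP-1 site (TGACTCA).
SEMA3D: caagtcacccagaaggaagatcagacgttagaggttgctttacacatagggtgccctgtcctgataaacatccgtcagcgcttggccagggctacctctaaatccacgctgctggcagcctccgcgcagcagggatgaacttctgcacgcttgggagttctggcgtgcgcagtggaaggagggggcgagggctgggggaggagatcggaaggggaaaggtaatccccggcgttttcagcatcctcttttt
SEMA3C: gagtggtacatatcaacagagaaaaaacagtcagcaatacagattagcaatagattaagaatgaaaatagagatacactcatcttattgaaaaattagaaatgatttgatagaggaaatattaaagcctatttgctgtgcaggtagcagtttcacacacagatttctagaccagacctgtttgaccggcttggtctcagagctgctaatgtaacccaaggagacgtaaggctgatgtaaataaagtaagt
EPHA1: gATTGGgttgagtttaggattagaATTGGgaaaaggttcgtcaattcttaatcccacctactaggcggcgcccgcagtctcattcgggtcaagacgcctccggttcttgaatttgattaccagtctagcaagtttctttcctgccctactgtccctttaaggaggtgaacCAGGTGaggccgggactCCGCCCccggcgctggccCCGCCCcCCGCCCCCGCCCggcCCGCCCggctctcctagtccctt
SLITRK3: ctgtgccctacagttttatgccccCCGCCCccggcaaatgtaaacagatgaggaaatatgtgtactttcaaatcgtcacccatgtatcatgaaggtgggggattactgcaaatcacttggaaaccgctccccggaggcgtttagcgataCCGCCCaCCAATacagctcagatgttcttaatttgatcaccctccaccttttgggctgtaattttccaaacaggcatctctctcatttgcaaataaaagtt
The SEMA3D window held none of the 5 motifs, 57.6% G and C and 13 CpG. The SEMA3C window also held none, with 36.4% G and C and 2 CpG. EPHA1 had 5 GC boxes, 2 CCAAT boxes and 1 E-box, and SLITRK3 had 2 GC boxes and 1 CCAAT box, with no letter shared between matches in either window. Across the family a GC box was in 39 of the 46 windows, against 42.3% of 27305 RefSeq windows of that length. The median content of G and C was 69.4% against 58.0%. The 27305 windows were taken without regard to gene type, whereas all matched members but SEMA3B-AS1 are protein-coding. These are unlike sets, and how members compare with other protein-coding genes was not tested. Of the 8 higher members 6 had a GC box and 4 a CCAAT box, and of the 35 matched members within 2-fold 31 and 12 did. For every matched member the first listed start was used, and some windows lie inside the annotated gene. That of PLXNC1 is chr12:94262369-94262618, in a gene that runs from 94148723 to 94307675. A CCAAT box was in 33.0% of all windows, an E-box in 17.5%, a TATA box in 11.1% and an AP-1 site in 4.16%. No member window held an AP-1 site and 1 held a TATA box. These matches are letters in a window and show no binding.

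Among the other secreted semaphorins, SEMA3B, often lost in lung tumours through its place on the short arm of chromosome 3, was nearest the limit. It had 8.59 FPKM in the parental and 18.0 FPKM in the resistant library (log2 ratio 0.99), just short of 2-fold with the pseudocount and 2.10-fold without it. Its divergent neighbour SEMA3B-AS1, which lies 186 bases before SEMA3B on the other strand, had 0.680 and 1.95 FPKM (0.81). A second locus of that antisense name lay in the plus-strand part of the table, at 0.291 and 1.28 FPKM (0.82). All of these loci were higher in resistant cells. Both antisense loci reached 1 FPKM in the resistant library only, so the filter admitted SEMA3B-AS1 through the library where it is higher. SEMA3F, 78.5 kb from SEMA3B and on the same strand, had 10.8 and 11.4 FPKM (0.07), and SEMA3G on the same chromosome had 3.64 and 3.55 FPKM (-0.03). The 6 secreted semaphorins summed to 42.9 FPKM in the parental and 106 FPKM in the resistant library, and SEMA3D made most of that gap.

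Of the 9 membrane semaphorins none passed 2-fold, and 7 lay below 0, with a median log2 ratio of -0.28. SEMA4C, a partner of plexin-B2, was the highest of them, at 84.4 FPKM in the parental and 70.6 FPKM in the resistant library (-0.26). SEMA6B had 36.6 and 19.4 FPKM (-0.88) and SEMA6A had 6.05 and 2.87 FPKM (-0.86). These were the lowest ratios of the group and near the limit, both belonging to the transmembrane class that binds A-type plexins. SEMA6B lay just below the central 95% of genes of like level, which ended at -0.84. SEMA6C had 8.06 and 5.86 FPKM (-0.40). SEMA4G had 10.7 and 7.55 FPKM (-0.45), SEMA4B 11.1 and 8.99 FPKM (-0.28), and SEMA4D, the ligand of plexin-B1, 13.8 and 11.3 FPKM (-0.28). SEMA4F (7.996 and 8.02 FPKM) and SEMA7A, a lipid-anchored semaphorin that binds plexin-C1 (6.16 and 6.41 FPKM), were nearly level. The group summed to 185 FPKM in the parental and 141 FPKM in the resistant library.

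Of the plexins, which are their receptors, 6 of 7 lay above 0, 3 were at least 2-fold higher, and the median log2 ratio was 0.54. Of all genes 3.28% were at least 2-fold higher, and 5.90% of those with a mean under 10 FPKM, where these 3 plexins lie. The plexin median was 0.33 with stranded loci only and 0.70 with the loci of a name summed. PLXNC1, on chromosome 12 from 94148723 to 94307675, had 3.82 FPKM in the parental and 11.9 FPKM in the resistant library (1.42). A small second locus of PLXNC1 without a strand went the opposite way, at 1.01 and 0.215 FPKM. PLXNB1, on chromosome 3 from 48403854 to 48430051, was represented by an unstranded locus, with 2.38 and 8.69 FPKM (1.52). Its locus on the annotated strand had 2.71 and 5.92 FPKM, a ratio of 0.90, within 2-fold. All 5 PLXNB1 loci were nevertheless higher in resistant cells. PLXNB3, on chromosome X, had no locus with a strand, and its single locus had 1.08 and 3.95 FPKM (1.25). PLXNA3, 0.679 Mb from it, had 9.41 and 14.1 FPKM (0.54). The most abundant plexin, PLXNB2, had 125 and 137 FPKM (0.13), PLXND1 16.6 and 16.2 FPKM (-0.03) and PLXNA1 14.4 and 14.8 FPKM (0.03). PLXNB2 alone thus made up most of the plexin sum, 173 FPKM in the parental and 206 FPKM in the resistant library. The co-receptor NRP1, through which secreted semaphorins act, had 5.18 and 4.24 FPKM (-0.24). The 32.3-fold higher SEMA3D thus stood beside NRP1, PLXNA1 and PLXND1 within 0.3 of 0 and PLXNA3 at 0.54.

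Of 5 EphA receptors 4 lay above 0, with a median log2 ratio of 0.99, and 2 passed 2-fold. Among all genes with a mean under 10 FPKM, where these 2 lie, 5.90% were at least 2-fold higher, and 3.28% of all genes compared. EPHA1, on the minus strand of chromosome 7 from 143390289 to 143408892, had 1.28 FPKM in the parental and 9.47 FPKM in the resistant library, a 7.38-fold difference (2.20), and ranked 53 of 12405 from the top. EPHA5, a receptor of neural tissue on chromosome 4 from 65319563 to 65670495, had 0.859 and 4.71 FPKM in an unstranded locus (1.62). Its locus on the annotated strand had 1.02 and 4.47 FPKM (1.44), also past 2-fold. Of 2 further unstranded loci, 1 was past 2-fold (1.28) and 1 was not, at 0.816 and 1.19 FPKM (0.27). EPHA7 had 3.33 and 7.59 FPKM (0.99), just inside the limit. EPHA10, whose kinase domain is thought to be inactive, had 6.43 and 10.8 FPKM (0.67). EPHA2, the receptor often studied in lung cancer, was the most abundant of the 5 and had 21.4 and 19.3 FPKM (-0.14). EPHA10 was second to it in both libraries, and EPHA1 moved from the fourth to the third highest of the 5.

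Of the EphB receptors, EPHB3 on chromosome 3 (184561784 to 184582409) had 0.913 FPKM in the parental and 3.57 FPKM in the resistant library (1.26). EPHB4, the most abundant, had 27.0 and 31.8 FPKM (0.23) and EPHB2 had 3.67 and 3.31 FPKM (-0.11).

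Among their ligands, EFNA5, a ligand of EphA receptors on chromosome 5 from 107376889 to 107670895, had 9.82 FPKM in the parental and 3.68 FPKM in the resistant library (-1.21), 2.67-fold lower in FPKM. EFNA3 had 20.0 and 15.4 FPKM (-0.35) and was the most abundant ephrin-A in both libraries. Its neighbours on chromosome 1, EFNA4 (14.3 and 14.8 FPKM, 0.05) and EFNA1 (3.59 and 4.16 FPKM, 0.17), and EFNA2 on chromosome 19 (3.30 and 4.09 FPKM, 0.25) lay near 0. The ephrin-B ligands EFNB1, EFNB2 and EFNB3 lay between -0.14 and -0.07, at 3.45 to 15.2 FPKM. EphA receptors summed to 33.3 and 51.9 FPKM, and ephrin-A ligands to 51.0 and 42.2 FPKM.

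SLIT2, the only slit compared, was among the higher genes. It lies on the plus strand of chromosome 4 from 20253260 to 20620561 and had 9.76 FPKM in the parental and 23.6 FPKM in the resistant library (1.19), above the central 95% of genes of like level, which ended at 1.13. Its receptor ROBO1 had 37.1 and 39.2 FPKM (0.08). ROBO3, a divergent roundabout receptor that lowers slit responses in crossing axons, had 15.5 and 23.0 FPKM (0.54).

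Netrin genes were lower within 2-fold. NTN1, the secreted netrin, had 13.7 FPKM in the parental and 9.51 FPKM in the resistant library (-0.48), and NTNG2, a membrane-anchored netrin that does not act through DCC, had 5.43 and 2.82 FPKM (-0.75). The netrin receptor neogenin, NEO1, had 74.5 and 53.3 FPKM (-0.47). UNC5B, which mediates repulsion, had 3.09 and 4.62 FPKM (0.46), and UNC5A had 2.59 and 2.31 FPKM (-0.12). NEO1 was far above the UNC5 receptors in both libraries.

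SLITRK proteins, synaptic adhesion molecules whose leucine-rich repeats resemble those of slits, had 1 of 3 members past 2-fold, SLITRK3. Of all genes 2.7% were at least 2-fold lower, and 3.73% of those with a mean under 10 FPKM, where all 3 lie. All 3 SLITRK members lay below 0, with a median log2 ratio of -0.91 against -0.04 of all genes. That median is the ratio of SLITRK4, which reached 1 FPKM in the parental library only. The filter thus admitted SLITRK4 through the library where it is higher. SLITRK3, an organizer of inhibitory synapses on chromosome 3 from 165186720 to 165197109, had 9.17 FPKM in the parental and 1.06 FPKM in the resistant library, 8.65-fold lower in FPKM (-2.30), and ranked 33 of 12405 from the bottom. Its second locus, without a strand, had 1.61 FPKM in parental cells and was listed at 0 in resistant cells. SLITRK5 had 10.1 and 4.91 FPKM (-0.91) and SLITRK4 had 2.59 and 0.906 FPKM (-0.91). The fold differences of FPKM were 2.05 and 2.86, and the pseudocount brought both inside the limit. Their sum was 21.8 FPKM in the parental and 6.88 FPKM in the resistant library.

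Collapsin response mediators carry semaphorin signals to microtubules. DPYSL2 (8.77 and 8.17 FPKM, -0.09), DPYSL5 (8.34 and 6.87 FPKM, -0.25) and DPYSL4 (7.29 and 5.43 FPKM, -0.37) lay within 2-fold and below 0. UNC50, which is no guidance gene, had 41.2 and 40.2 FPKM (-0.04).

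By role, 6 of the 21 receptors compared were at least 2-fold higher and none lower, with 15 above 0 and a median log2 ratio of 0.46; of all genes 3.28% were higher and 2.7% lower, and of those with a mean under 10 FPKM, where these 6 receptors lie, 5.90% and 3.73%. Of the 26 ligands 2 were higher and 1 lower, with 10 above 0 and a median of -0.13. The difference between receptors and ligands was not tested. Receptors past the limit were of low level in parental cells, between 0.859 and 3.82 FPKM, so each rests on values that the pseudocount compresses. For PLXNB1, PLXNB3 and EPHA5 the loci that stood for the gene had FPKM in ratios of small whole numbers (3 to 11, 3 to 11 and 2 to 11). Such ratios make few fragments likely. EPHA5 and EPHB3 reached 1 FPKM in the resistant library only, so the filter admitted them through the library where they are higher. With a pseudocount of 5 FPKM only SEMA3D (3.06), EPHA1 (1.20) and SLITRK3 (-1.23) of the 10 stayed past 2-fold, and SLIT2 (0.95) and PLXNC1 (0.94) lay just inside.

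**Figure D4:**
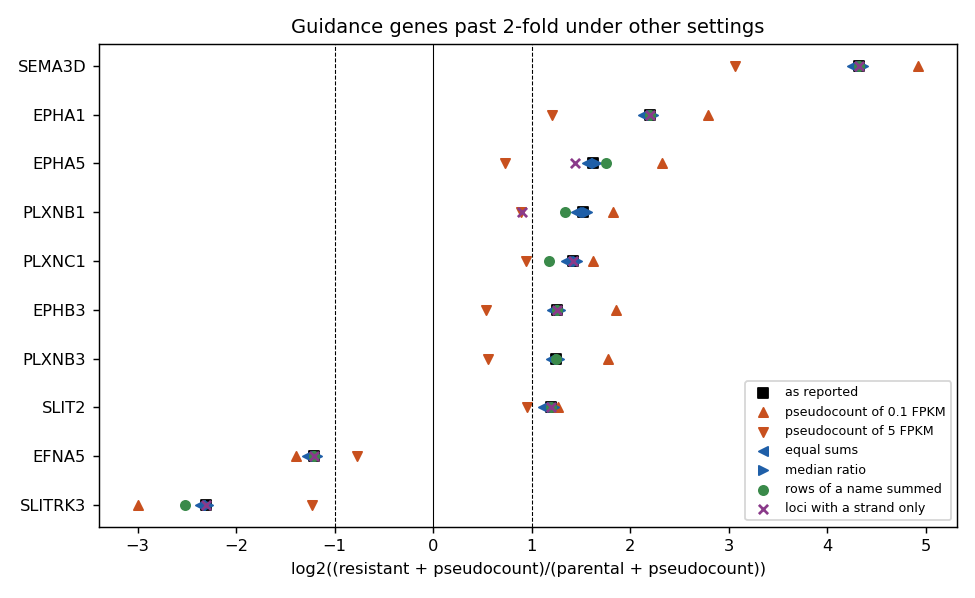
Log2 ratio of the 10 members past 2-fold under the reported setting (squares) and under 6 others, with dashed lines at 2-fold. SEMA3D, EPHA1 and SLITRK3 lie outside the lines under each, and the downward triangles, for a pseudocount of 5 FPKM, bring the other 7 inside.

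More than 1 locus carried the name of 14 of the 56 members, and unstranded loci can be mere fragments of a gene. In 12 members a locus on the annotated strand could be set beside 1 to 4 loci without a strand. For EPHA5, PLXNB1, EPHA10, PLXNA3 and PLXNB2 all of them lay above 0 with the stranded locus, and for SLITRK3 and SEMA6C all lay below. For PLXNC1 the single extra locus had the opposite sign, and for SEMA4C, SEMA4D, NTNG2 and UNC50 the signs were mixed. SEMA3D, SLIT2, EPHA1, EPHB3 and EFNA5 each had 1 locus, on the annotated strand.

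**Figure D5:**
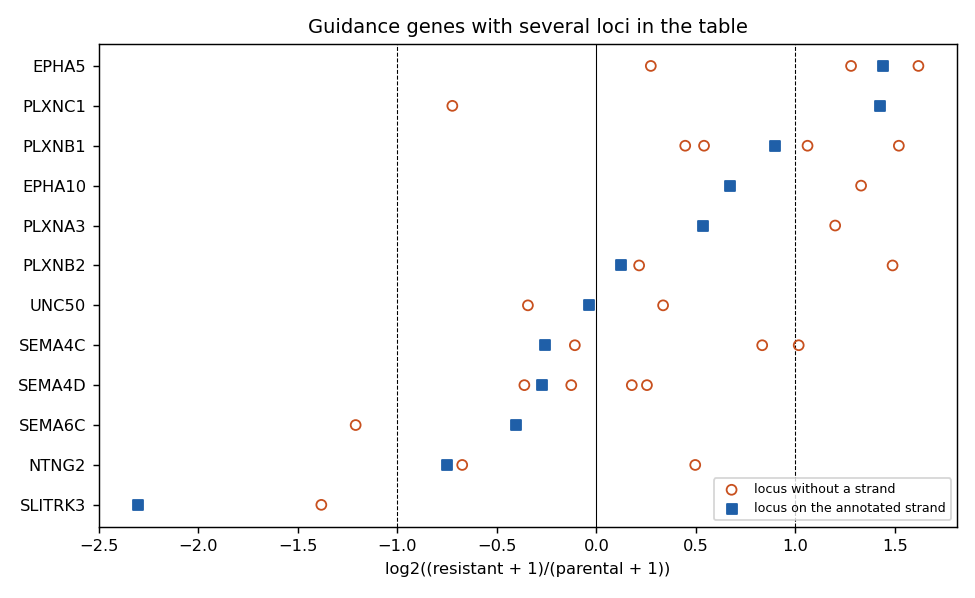
Log2 ratio of the locus on the annotated strand (squares) and of loci without a strand (open circles) for the 12 members with both, with dashed lines at 2-fold. The loci of PLXNB1 and EPHA5 lie all to the right of 0, whereas those of PLXNC1 lie on both sides.

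Of 60 listed genes that act with these ligands and receptors 47 were compared, and their median log2 ratio was -0.0003. Of these signalling partners 1 was higher and 1 lower by 2-fold or more, near the 3.28% and 2.7% of all genes. VAV3, an exchange factor that Eph receptors engage, had 0.282 FPKM in the parental and 2.11 FPKM in the resistant library (1.28). It passed the filter of 1 FPKM through the resistant library only. NRCAM, an adhesion molecule that associates with neuropilins, had 202 and 99.1 FPKM (-1.02). ADAM10, a protease that cleaves ephrins, had 32.2 and 18.9 FPKM (-0.73), and FYN, a kinase downstream of semaphorin and ephrin receptors, had 5.63 and 3.33 FPKM (-0.62). The GTPases RAC1 (130 and 124 FPKM) and CDC42 (106 and 116 FPKM) lay within 0.13 of 0. Of marker lists for other cells, which could bear guidance genes of their own, none of 6 endothelial markers, 1 of 6 leukocyte markers and 2 of 6 fibroblast markers had a named locus. CORO1A, of the leukocyte list, had 26.1 and 16.8 FPKM, within 2-fold. The 2 of the fibroblast list, which summed to 50.3 and 13.9 FPKM, went opposite ways: PDGFRA, also found on other cell types, had 48.0 and 10.1 FPKM (-2.14), and COL1A1 had 2.34 and 3.85 FPKM (0.54). Of 10 neuroendocrine markers 5 were compared, UCHL1 leading with 251 and 259 FPKM, and SCG2, at 109 and 20.1 FPKM, was past 2-fold. Their part in the results was not tested.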

How the data were processed

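Polyadenylated RNA of 1 parental and 1 cisplatin-resistant SBC5 library was measured. Per the file headers, the deposited values are FPKM, 1 column for each library. TopHat2 and the build hg38 are named per the submitters' processing notes; what computed the FPKM, and from which annotation, is not given in the sources used here. Sample descriptions in the labels assigned both columns, and 0 were left over. Of 19217 loci, 2919 without a name and 23 with a date for a name were left out. A name with several loci was represented by the one of highest mean FPKM. Members were named if past 2-fold, within 0.2 of it on the log2 scale, or highest of their role; the others are given with their role group. The members and lists were chosen with earlier results of these data known.

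Strand was inferred from the order of loci, which on each chromosome runs through a plus, a minus and an unstranded part. The annotated chromosome, strand and position of named loci were used to place these parts. In all, 12904 loci were given a strand, and 98.6% of those with an annotated strand lay on it. Because that annotation guided the placing, this share is no independent check of the strands. Gene positions are from GENCODE release 29, on the same build as hg38. Ranges of genes of like level used 20 bins of mean FPKM. Alternatives were pseudocounts of 0.1 and 5 FPKM, no filter and a filter of 5 FPKM, equal sums, division by the median ratio, summed loci, loci with a strand only and a 4-fold limit. The inference of strand and the counts past 2-fold were run on simulated data built with the same order and formula. That checks the code and not how well its assumptions hold here. The promoter search and the whole-number ratios were not run on simulated data. Python 3.11.15, pandas 2.3.3, NumPy 2.4.6 and matplotlib 3.10.9 were used.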

Additional observations from a re-analysis of the deposited data

How the results depend on the processing

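Among the 29 members whose log2 ratio was recomputed, none past 2-fold changed direction. A pseudocount of 0.1 FPKM gave 11 members higher (20%) and 5 lower (9.09%), and 2 signalling partners lower. Of all genes it made 614 higher (4.95%) and 3.85% lower. A pseudocount of 5 FPKM gave 2 and 1 members, 142 and 136 of all genes, and 0 and 0 partners. At 5 FPKM, 3.64% of members and 1.14% of all genes were higher. A filter of 5 FPKM left 42 members, 5 of them higher (11.9%, against 2.82% of all genes), and 0 partners higher. Among those 5, SEMA3D, EPHA1, PLXNB1 and PLXNC1 reached 5 FPKM in the resistant library only, so the filter kept them through the library where they are higher. A 4-fold limit gave 2 members higher (SEMA3D and EPHA1) and 1 lower (SLITRK3), 76 and 60 of all genes, and 0 and 0 partners. As shares these were 3.64% and 1.82% of members, and 0.613% and 0.484% of all genes. Division by the median ratio turned the median of the members to 0.0054 and left 0 partners lower. It made 10 members higher (18.2%, against 3.42% of all genes) by moving EPHA7 and SEMA3B past 2-fold. Equal sums made the median of all genes -0.12 and of the members -0.11, with 8 higher and 2 lower as reported, and moved the split over all genes to 361 higher and 388 lower. The median of the ephrin-A ligands, 0.05 as reported, turned to -0.032 with equal sums and to -0.35 with a filter of 5 FPKM. With stranded loci only, 6 of 54 members were higher (11.1%, against 2.84% of all genes), since PLXNB1 moved inside and PLXNB3 has no such locus. Depth is unknown, so counting error could not be given. No paired analysis was possible because each group is 1 library.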

Other observations

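The FPKM of some loci had ratios of small whole numbers, which makes few fragments likely. A resistant to parental worth of 1 read of 0.996 made 53.0% of the 7591 loci with values between 0 and 5 FPKM in each library match such a ratio (terms up to 20, relative tolerance 2e-05), and 20 wrong values of that worth made 0.161% match on average. Of the 38 loci of guidance genes in that range 20 matched (52.6%), near the share over all loci, and of all 83 loci of these genes 22 did. PLXNB3 and the PLXNB1 locus that stood for its gene each matched 3 to 11, and the EPHA5 locus that stood for its gene matched 2 to 11. The smaller loci of EPHA10, PLXNB1 and PLXNB2 each held one at 1 to 5. The single loci of EPHA1, EPHB3, SLIT2 and EFNA5 matched none, nor did the stranded loci of PLXNC1, PLXNB1, EPHA5 and SLITRK3. A ratio with terms above 20 would go unseen, so the lack of a match does not show many fragments. The locus of SEMA3D, at 32.3-fold, could not match with terms up to 20, so the search says nothing of its fragments.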
